A study of Mus musculus with 50 samples.

Results

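The 10 imprinted growth regulator genes described here are Igf2, H19, Dlk1, Meg3, Peg3, Cdkn1c, Plagl1, Grb10, Mest and Ndn. They were taken by name. All 10 were found among the 55487 genes counted, and all 10 were among the 23264 genes tested after a filter on low counts. Messenger RNA from mouse frontal cortex was sequenced in 50 libraries of 1 mouse each, with 5 wild-type and 5 Setd1a+/- mice at embryonic days 14 and 18 (E14 and E18) and postnatal days 7, 35 and 70 (P7, P35 and P70). The Setd1a+/- mice carry 1 loss-of-function (tm1d) allele of Setd1a, a histone methyltransferase gene, in all cells, and the wild-type mice carry none. The sample labels give the strain of both genotypes as C57BL/6NTac, whereas the study's methods describe a mixed C57BL/6NTac and C57BL/6J background, with heterozygous fathers and wild-type mothers. The embryonic samples were dissected as frontal brain regions and the postnatal ones as frontal cortex, so a step from E18 to P7 also crosses a change of dissection. Total counts per library ran from 35507165 to 43907318. Levels are given as CPM after TMM scaling, and levels of different genes are set side by side only per length, as CPM divided by exonic length in kilobases (RPKM).

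Imprinted genes are expressed mainly from the copy inherited from either the mother or the father, according to DNA methylation set in the germ line. Many of them act on fetal growth in opposite directions: paternally expressed genes such as Igf2 tend to promote it, and maternally expressed genes such as Cdkn1c and H19 tend to restrain it. In the brain they are known from progenitors, neurons, meninges and choroid plexus. The libraries count the RNA of both parental copies together, so the values below are levels and say nothing of which copy was expressed.

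Of the 10 genes, 5 lie on chromosome 7. Igf2 (ENSMUSG00000048583, GRCm38 chr7:142650766-142666816) and the noncoding H19 (ENSMUSG00000000031, chr7:142575529-142578143) are neighbours there, with Cdkn1c (ENSMUSG00000037664, chr7:143458339-143461050) in the same region, and Peg3 (ENSMUSG00000002265, chr7:6703892-6730431) and Ndn (ENSMUSG00000033585, chr7:62346569-62350262) farther off. Dlk1 (ENSMUSG00000040856, chr12:109452823-109463336) and the noncoding Meg3 (ENSMUSG00000021268, chr12:109541001-109571726) are neighbours on chromosome 12. Plagl1 (ENSMUSG00000019817, chr10:13060504-13131694), Grb10 (ENSMUSG00000020176, chr11:11930508-12038683) and Mest (ENSMUSG00000051855, chr6:30723547-30748465) each lie apart from the others. Fragments were counted without regard to strand and for every gene whose exons they touch, so some counts are shared. Igf2 shares 62.8% of its exonic bases with the read-through model Gm49394, whose count was 92.8 to 98.5% of that of Igf2 in each library. Cdkn1c shares 30.7% with the antisense gene Gm44732, and Mest 23.1% with Copg2 on the opposite strand. H19 shares 9.1% of its exonic bases, mainly with Mir675 and short RNA models, and Meg3 1.5%. For Dlk1, Peg3, Grb10 and Ndn no exonic base is shared.

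Setd1a itself was counted in every library. At E14 it stood at 119.8, 121, 127, 111 and 113 CPM in wild-type replicates 1 to 5 and at 141, 132.2, 119.6, 132.7 and 121 CPM in Setd1a+/- replicates 1 to 5. The corresponding values at E18 were 89.0, 91.7, 91.1, 83.0 and 95.3 against 99.5, 111, 92.6, 99.2 and 107 CPM. At P7 they were 69.2, 73.5, 67.2, 67.4 and 68.1 against 78.7, 74.9, 73.1, 79.7 and 79.7 CPM. The heterozygotes were not lower at these ages, and at P7 all 5 lay above 4 of the 5 wild-type libraries. At P35 the values were 87.5, 78.7, 76.9, 80.9 and 80.9 against 88.3, 83.5, 84.5, 85.2 and 86.3 CPM, and at P70 81.0, 84.7, 81.3, 79.2 and 86.9 against 79.3, 82.2, 78.5, 74.0 and 93.2 CPM, with overlapping groups at both ages. Across ages the heterozygotes were higher (log2 fold change 0.10 ± 0.02, adjusted p 0.00507, edgeR, 25 libraries per genotype). A whole-gene count includes RNA of the mutant allele from exons outside its deleted part, so it does not check the genotype of a library.

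Several libraries stand apart. Wild-type replicate 2 at P7 held 626 CPM of summed choroid plexus markers, a list of 9 genes, where the other 9 libraries of that age held 6.81 to 9.86 CPM. Ttr made up 576 CPM of that sum, and Otx2 stood at 16 CPM. The same library was highest of its age in progenitor markers (396 CPM against 152 to 217 CPM). Of the 10 imprinted genes it was highest at P7 for Dlk1, Peg3, Cdkn1c and Plagl1 and lowest for Meg3 and Grb10. At E14, Setd1a+/- replicate 2 held 1678 CPM of meningeal and perivascular fibroblast markers against 117 to 620 CPM in the other 9, and 821 CPM of endothelial and mural cell markers against 171 to 303 CPM. It was the highest E14 library for Igf2, H19 and Mest. Wild-type replicate 1 at E14 was highest of its age in the sum of the hypothalamic and midbrain list (149 CPM). At E14 that sum is mainly Nkx2-1 (71.8 of 82.7 CPM on average), which is also known from the ventral telencephalon, so it does not name a tissue. It was the highest E14 library for Dlk1, Meg3, Peg3 and Ndn, and the lowest for Igf2 and H19. The mice are described as male, yet 1 wild-type library of each embryonic age (replicate 5 of E14, replicate 2 of E18) carried 60159 and 55644 counts of Xist, with 0 and 11 counts over 4 Y-linked genes, where the other libraries had at most 27 and at least 4711.

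Per length, the order of the 10 genes changed with age. At E14 Ndn (70.9 ± 28.3 RPKM, mean ± SD, n = 10), Cdkn1c (64.9 ± 13.4), Mest (63.8 ± 16.2), H19 (59.5 ± 30.8) and Meg3 (49.1 ± 16.4) led, and these 5 lay within their spread of each other. Grb10 (28.3 ± 5.92), Igf2 (25.5 ± 23.3), Plagl1 (17.6 ± 2.59) and Peg3 (15.2 ± 2.14) followed, and Dlk1 was lowest (7.51 ± 2.41). From E18 on Meg3 was first, with 78.5 ± 18.3 RPKM at E18, where Ndn (77.6 ± 19.1) was within its spread, and 211 ± 24.6 RPKM at P7, where Ndn (67.7 ± 16.5) was not. At P70 the order was Meg3 (212 ± 27.2), Ndn (34.5 ± 9.78), Peg3 (27.1 ± 1.79), Igf2 (13.3 ± 4.74), Mest (10.1 ± 0.594), Cdkn1c (4.08 ± 0.590), Grb10 (3.75 ± 0.406), Plagl1 (2.61 ± 0.249), Dlk1 (1.36 ± 0.739) and H19 (0.0998 ± 0.0451). Neighbours within their spread at P70 were Ndn and Peg3, Igf2 and Mest, and Cdkn1c and Grb10.

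**Figure D1:**
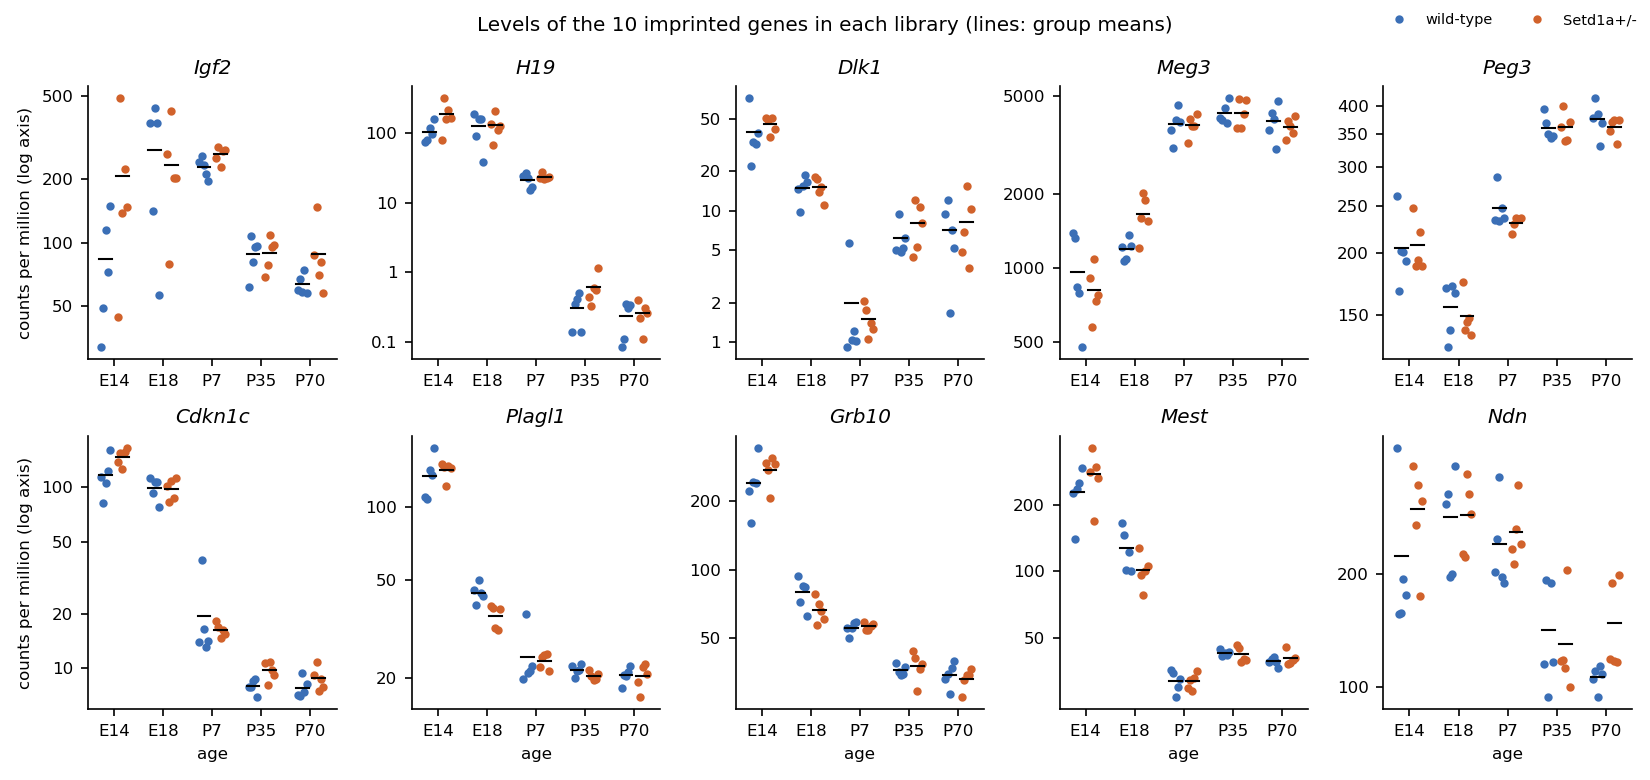
Level of each of the 10 genes in the 50 libraries, in CPM on a log axis that differs between panels, against age. Each point is 1 library (wild-type blue, Setd1a+/- orange) and black lines are the means of 5; H19 falls from 74.1 to 318 CPM at E14 to at most 0.393 CPM at P70, while Meg3 and Peg3 rise.

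The first question is how the genes changed with age, tested over successive steps with 10 libraries per age and genotype as a covariate. From E14 to E18, Dlk1, Peg3, Cdkn1c, Plagl1, Grb10 and Mest fell, and Igf2 and Meg3 rose. That is 6 of 10 lower, where 33.0% of the 23264 genes tested were called lower, and 2 of 10 higher, where 33.9% were. From E18 to P7, H19, Dlk1, Cdkn1c, Plagl1, Grb10 and Mest fell and Meg3 and Peg3 rose, 6 of 10 lower beside 35.4% of all genes and 2 of 10 higher beside 35.2%. From P7 to P35, Igf2, H19, Cdkn1c, Plagl1, Grb10 and Ndn fell and Dlk1, Peg3 and Mest rose, 6 of 10 lower beside 35.3% and 3 of 10 higher beside 36%. The median log2 fold change of the 10 was -0.43, -0.57 and -0.39 over these steps, where the median of all genes tested lay within 0.01 of 0. From P35 to P70 edgeR called 0 of 10 lower, beside 3.2% of all genes, and 0 of 10 higher, beside 4.68%. No gene of the 10 had an unadjusted p under 0.05 (0 of 10), beside 21.1% of all genes, and DESeq2 and limma-voom called 0. With so large a share of all genes called over each of the earlier steps, the counts say little by themselves, and the genes are described one by one by their values. In whole tissue, fewer cells of a type and less RNA per cell cannot be told apart.

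**Figure D2:**
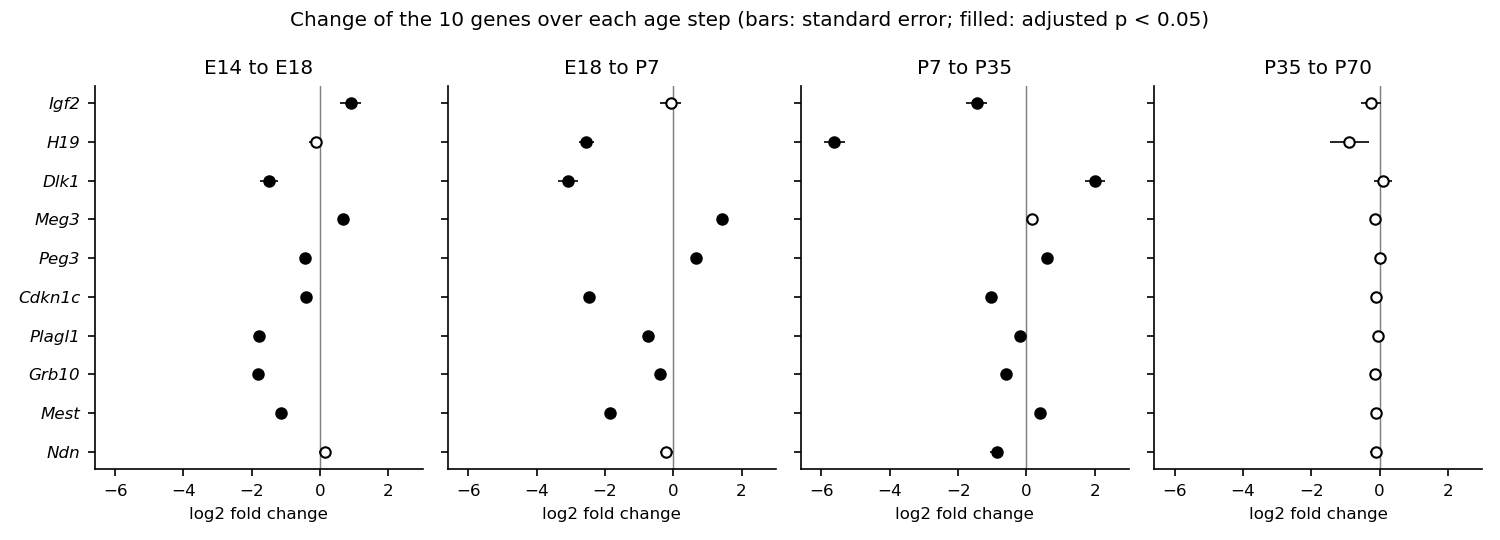
Log2 fold change of each gene over the 4 age steps (later against earlier age, 10 libraries per age), with standard errors as bars. Filled points have an adjusted p under 0.05: 8 genes, 8 genes and 9 genes over the first to the third step and none over the last, where all 10 lie between -0.88 and 0.11.

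Igf2 encodes a paternally expressed growth factor of the fetus, and H19 a maternally expressed noncoding RNA transcribed beside it. Both were variable among embryonic libraries and fell after birth, H19 earlier and much further. Igf2 ran from 31.9 to 485 CPM (median 127) at E14, from 56.5 to 437 CPM (median 233) at E18 and from 197 to 285 CPM (median 247) at P7. It then ran from 61.3 to 108 CPM (median 95.3) at P35 and from 57.5 to 147 CPM (median 68.4) at P70. It rose 1.86-fold from E14 to E18 (log2 fold change 0.89 ± 0.31, adjusted p 0.00948), with overlapping libraries. The log2 fold change was 1.26 (adjusted p 8.8e-05) without Setd1a+/- replicate 2 at E14, and 1.72 (adjusted p 0.000513) in wild-type libraries alone. It did not pass the test to P7 (log2 fold change -0.08 ± 0.30, adjusted p 0.827) and fell 2.75-fold to P35 (log2 fold change -1.46 ± 0.31, adjusted p 4.21e-05), where every P35 library lay below every P7 library. Of the 12 meningeal and perivascular fibroblast markers, whose sums are given below, 6 rose and 0 fell from E14 to E18 in edgeR (median log2 fold change 0.75), and 0 rose and 4 fell from P7 to P35 (median -0.67). Their part in these steps of Igf2 was not tested. H19 ran from 74.1 to 318 CPM (median 139) at E14, from 38.7 to 210.4 CPM (median 132.2) at E18 and from 15.2 to 27.9 CPM (median 22.5) at P7. By P35 it had dropped to 0.137 to 1.13 CPM (median 0.424), and at P70 it stood at 0.0838 to 0.393 CPM (median 0.278), which is 3 to 14 counts per library. The mean at E14 was 597 times that at P70. H19 did not pass the test from E14 to E18 (log2 fold change -0.13 ± 0.20, adjusted p 0.579; 0.03 without Setd1a+/- replicate 2 at E14). It fell 5.83-fold to P7 (log2 fold change -2.54 ± 0.21, adjusted p 4.63e-15) and 49.2-fold to P35 (log2 fold change -5.62 ± 0.31, adjusted p 9.51e-22), and the libraries of P7 and P35 did not overlap.

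H19 and Meg3 carry microRNA precursors within their exons, shown here because the counts of these noncoding RNAs cover them. Meg3 also covers Mir1906-1, with a mean of 4381 counts per library, for which no mature sequence is shown. miR-675 lies in H19 (chr7:142577078-142577099 and chr7:142577112-142577133, minus strand) and miR-770 in Meg3 (chr12:109563744-109563765 and chr12:109563710-109563731, plus strand). The mature sequences are from RefSeq (GRCm38.p6), 5′ to 3′, with the seed, bases 2 to 8, in capitals.
miR-675-3p: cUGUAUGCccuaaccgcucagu
miR-675-5p: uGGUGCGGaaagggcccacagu
miR-770-3p: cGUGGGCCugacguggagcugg
miR-770-5p: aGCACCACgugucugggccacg
The 4 seeds differ from each other. Fragments over the precursor Mir675 averaged 750.0 counts per library at E14, 110.2 at P7 and 0.4 at P70, and those over Mir770 averaged 619, 2698 and 2810. These are fragments of polyadenylated host RNA, since libraries made by poly-A capture do not measure mature microRNAs.

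The ratio of H19 to Igf2 within a library does not depend on scaling. Per length and on the log2 scale (0.5 counts added), H19 was above Igf2 at E14 (mean 1.52, lowest 0.61, highest 2.43, n = 10) and still so on average at E18 (mean 0.37). At P7 the ratio had turned to -2.25 and at P35 to -6.55, and no library of these ages had more H19 than Igf2 per length. At P70 it was -7.07.

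Dlk1, a paternally expressed ligand related to those of Notch, and Meg3, a maternally expressed noncoding RNA of neurons, are also neighbours, and they moved in opposite directions over the steps to P7. Dlk1 ran from 21.7 to 71.1 CPM (median 40.4) at E14 and from 9.76 to 18.6 CPM (median 15.2) at E18. It ran from 0.923 to 5.69 CPM (median 1.24) at P7, and the highest of these was the library with choroid plexus RNA; the other 9 held 0.923 to 2.05 CPM. Later it ran from 4.47 to 12.1 CPM (median 5.73) at P35 and from 1.68 to 15.5 CPM (median 7.0) at P70. It fell 2.82-fold to E18 (log2 fold change -1.50 ± 0.26, adjusted p 1.36e-06) and 8.49-fold to P7 (log2 fold change -3.09 ± 0.30, adjusted p 3.7e-13), and rose 4.01-fold to P35 (log2 fold change 2.00 ± 0.30, adjusted p 5.44e-08). Without wild-type replicate 2 at P7 the last 2 values were -3.55 and 2.45. All 10 libraries of P35 lay above the other 9 of P7. Meg3 ran from 478 to 1383 CPM (median 815) at E14, from 1063 to 2018 CPM (median 1295) at E18 and from 3075 to 4581 CPM (median 3835) at P7. At P35 and P70 all libraries held between 3036 and 4869 CPM. It rose 1.59-fold to E18 (log2 fold change 0.67 ± 0.13, adjusted p 8.99e-06), a call that was lost in wild-type libraries alone (0.31, adjusted p 0.12, 5 per age), and 2.69-fold to P7 (log2 fold change 1.43 ± 0.13, adjusted p 5.71e-14), where its libraries no longer overlapped those of E18. The step to P35 did not pass (log2 fold change 0.15 ± 0.13, adjusted p 0.277). Per length, the log2 ratio of Meg3 to Dlk1 began at 2.70 at E14 and 4.88 at E18, peaked with 9.64 at P7 and was 7.62 and 7.51 at the last ages (means of 10).

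Plagl1, Grb10, Mest and Cdkn1c each fell over the steps to E18 and P7. Cdkn1c encodes an inhibitor of cyclin-dependent kinases, Grb10 an adaptor protein that dampens signalling from insulin and insulin-like growth factor receptors, Plagl1 a zinc finger transcription factor, and Mest an enzyme-like protein of embryonic mesoderm. Plagl1 ran from 107 to 174 CPM (median 143) at E14, from 31.5 to 50 CPM (median 39.5) at E18 and from 19.8 to 36.6 CPM (median 22.2) at P7. Grb10 ran from 159.4 to 339.7 CPM (median 258) at E14, from 57.4 to 94.2 CPM (median 71.3) at E18 and from 50.1 to 59.1 CPM (median 56.2) at P7. Mest ran from 140.3 to 360.0 CPM (median 257) at E14, from 78.1 to 165 CPM (median 103) at E18 and from 27 to 35.6 CPM (median 32.4) at P7. For Plagl1 and Grb10 every E18 library lay below every E14 library, and for Mest every P7 library lay below every E18 library. From E14 to E18, Grb10 fell 3.53-fold (log2 fold change -1.82 ± 0.09, adjusted p 9.63e-23), Plagl1 3.43-fold (log2 fold change -1.78 ± 0.08, adjusted p 8.1e-24) and Mest 2.21-fold (log2 fold change -1.14 ± 0.11, adjusted p 1.23e-13). Over the next step Mest fell further (3.58-fold, log2 fold change -1.84 ± 0.11, adjusted p 1.16e-20) than Plagl1 (1.69-fold, log2 fold change -0.75 ± 0.08, adjusted p 2.87e-11) and Grb10 (1.30-fold, log2 fold change -0.38 ± 0.09, adjusted p 0.00022). After P7 they parted. Mest rose 1.33-fold (log2 fold change 0.41 ± 0.11, adjusted p 0.000642), and Copg2, which shares exonic bases with it and whose count was 161.9% of that of Mest at P7 and 200.04% at P35 (medians), rose further (1.60-fold, log2 fold change 0.68 ± 0.065, adjusted p 3.13e-13). How far shared fragments carry the rise of Mest was not tested. Grb10 fell 1.51-fold (log2 fold change -0.59 ± 0.09, adjusted p 1.01e-07). Plagl1 fell slightly (log2 fold change -0.19 ± 0.08, adjusted p 0.0464), a call that was lost without any of 11 libraries, and its adjusted p was 0.18 (log2 fold change -0.11) without wild-type replicate 2 at P7. The 11 were that library, Setd1a+/- replicates 2, 3 and 4 at P7, wild-type replicates 2, 3 and 4 at P35 and Setd1a+/- replicates 2, 3, 4 and 5 at P35, with log2 fold changes of -0.19 to -0.11.

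The promoters of Plagl1, Grb10 and Mest are shown because these genes fell together over the steps to P7. That of Peg3 is shown because it took the opposite course from E18 to P7. Each is the window of 250 bases before to 50 after a start site from RefSeq (GRCm38.p6), the one richest in CpG where a gene has several, 5′ to 3′ on the strand of the gene: Plagl1 chr10:13090582-13090881 (plus), Grb10 chr11:12037371-12037670 (minus), Mest chr6:30737800-30738099 (plus) and Peg3 chr7:6730370-6730669 (minus). Capitals mark matches on either strand to the GC box GGGCGG, the CCAAT box CCAAT, the TATA box TATAAA and GGGGCCCC, a palindrome known to be bound by the PLAGL1 protein.
Plagl1: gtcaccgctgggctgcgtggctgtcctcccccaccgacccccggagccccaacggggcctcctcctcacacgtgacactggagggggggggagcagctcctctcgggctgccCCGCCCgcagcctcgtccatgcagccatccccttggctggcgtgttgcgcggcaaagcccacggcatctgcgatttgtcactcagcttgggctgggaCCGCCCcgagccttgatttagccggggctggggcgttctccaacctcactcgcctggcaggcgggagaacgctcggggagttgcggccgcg
Grb10: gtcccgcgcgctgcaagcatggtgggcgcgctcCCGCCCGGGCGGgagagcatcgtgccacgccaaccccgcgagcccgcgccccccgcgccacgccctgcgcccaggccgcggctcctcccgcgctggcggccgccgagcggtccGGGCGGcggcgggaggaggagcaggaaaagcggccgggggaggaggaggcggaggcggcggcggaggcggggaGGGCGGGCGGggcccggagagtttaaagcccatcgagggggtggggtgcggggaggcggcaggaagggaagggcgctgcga
Mest: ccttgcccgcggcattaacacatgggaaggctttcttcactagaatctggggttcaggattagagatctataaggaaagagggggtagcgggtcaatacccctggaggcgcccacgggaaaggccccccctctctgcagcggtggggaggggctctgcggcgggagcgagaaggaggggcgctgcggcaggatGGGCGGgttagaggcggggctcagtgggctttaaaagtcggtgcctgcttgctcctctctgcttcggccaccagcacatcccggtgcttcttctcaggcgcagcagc
Peg3: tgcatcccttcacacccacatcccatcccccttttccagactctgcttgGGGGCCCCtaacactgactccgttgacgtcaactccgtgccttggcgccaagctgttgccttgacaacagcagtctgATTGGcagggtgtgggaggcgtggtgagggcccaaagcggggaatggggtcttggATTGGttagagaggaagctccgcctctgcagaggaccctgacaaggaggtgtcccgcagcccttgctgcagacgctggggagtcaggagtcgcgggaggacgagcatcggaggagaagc
Grb10 held 45 CpG and 5 GC boxes, 2 bases of which are shared by overlapping matches, Plagl1 26 CpG and 2 GC boxes, and Mest 17 CpG and 1 GC box. Peg3 held 13 CpG, 2 CCAAT boxes and 1 GGGGCCCC, and no GC box. Of all 32851 promoters 35.7% hold GGGCGG, 37.4% CCAAT, 13.6% TATAAA and 1.08% GGGGCCCC, and the median is 7 CpG. Of the 10 genes, 8 had a promoter in the table, in 15 windows, and H19 and Cdkn1c had none. A match is a description of letters and not a site of binding.

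Cdkn1c kept most of its level before birth and lost it by P7. It ran from 81.8 to 164.3 CPM (median 131.97) at E14 and from 77.6 to 112 CPM (median 104) at E18. At P7 it ran from 13.1 to 39.7 CPM (median 15.9), with the highest value in the library with choroid plexus RNA and the other 9 at 13.1 to 18.2 CPM. It fell 1.33-fold to E18 (log2 fold change -0.41 ± 0.13, adjusted p 0.00383; -0.23, adjusted p 0.259, in wild-type libraries alone), 5.50-fold to P7 (log2 fold change -2.46 ± 0.14, adjusted p 1e-21) and 2.03-fold to P35 (log2 fold change -1.02 ± 0.14, adjusted p 5.68e-09). Without that library the last 2 log2 fold changes were -2.69 and -0.81. At P35 and P70 all 20 libraries held between 6.98 and 10.9 CPM. Of the other inhibitors of the family, Cdkn1b fell over the same steps, to E18 (log2 fold change -0.41 ± 0.05, adjusted p 1.97e-09), to P7 (log2 fold change -0.97 ± 0.05, adjusted p 9.52e-22) and to P35 (log2 fold change -0.45 ± 0.05, adjusted p 2.04e-10). Cdkn1a took a different course. It rose to E18 (log2 fold change 0.88 ± 0.12, adjusted p 1.35e-08) and to P7 (log2 fold change 0.93 ± 0.12, adjusted p 1.56e-09) and fell to P35 (log2 fold change -0.69 ± 0.12, adjusted p 1.18e-06).

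The falls of Plagl1, Grb10 and Mest before and around birth ran beside those of progenitor markers. Cdkn1c fell mainly at the later step (log2 fold change -0.41 to E18 and -2.46 to P7). All 8 genes of that list fell from E14 to E18, with a median log2 fold change of -1.56, among them Mki67 (log2 fold change -1.97 ± 0.17, adjusted p 1.48e-14) and Top2a (log2 fold change -1.97 ± 0.17, adjusted p 2.73e-14), genes of proliferating cells. From E18 to P7, 6 of the 8 fell, with Nes, an intermediate filament of neural progenitors, lowest (log2 fold change -1.74 ± 0.09, adjusted p 9.49e-23), and Hes1 rose (log2 fold change 0.33 ± 0.10, adjusted p 0.004). From P7 to P35 6 of 8 fell, with Eomes (log2 fold change -3.01 ± 0.50, adjusted p 6.36e-07) and Mki67 (log2 fold change -2.55 ± 0.19, adjusted p 8.21e-17) the furthest. The summed level of the list ran from 1195 to 1790.4 CPM (median 1549) at E14, from 380.2 to 572 CPM (median 479) at E18, from 152 to 396 CPM (median 190.2) at P7, from 92.8 to 121 CPM (median 107) at P35 and from 84.5 to 109 CPM (median 98.6) at P70. Nes gave the largest share of the counts in that sum at the embryonic ages and Sox2 at the later ones, Sox2 was the most abundant per length over all libraries, and no gene of the list was at 0. Its part in the falls of Plagl1, Grb10, Mest and Cdkn1c was not tested.

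Peg3, a paternally expressed zinc finger protein, and Ndn, a paternally expressed protein of neurons that restrains cell division, had the smallest folds between age means of the 10, though Ndn varied within ages (coefficient of variation 39.9% at E14 and 31.1% at P35). Peg3 ran from 168 to 263 CPM (median 198) at E14 and from 129 to 175 CPM (median 146) at E18. It then ran from 219 to 286 CPM (median 235) at P7, from 340.0 to 399.7 CPM (median 357) at P35 and from 331 to 414 CPM (median 372) at P70. It fell 1.36-fold to E18 (log2 fold change -0.44 ± 0.06, adjusted p 5.56e-09) and then rose 1.57-fold to P7 (log2 fold change 0.65 ± 0.06, adjusted p 6.69e-14) and 1.51-fold to P35 (log2 fold change 0.60 ± 0.06, adjusted p 8.47e-13). Every library of P7 lay above every one of E18, and every one of P35 above every one of P7. Ndn ran from 156 to 436 CPM (median 233) at E14, from 197 to 389.9 CPM (median 299.8) at E18 and from 190.3 to 366 CPM (median 237) at P7. It did not pass the test over the steps to E18 (log2 fold change 0.14 ± 0.18, adjusted p 0.49) and P7 (log2 fold change -0.20 ± 0.18, adjusted p 0.322). The first was 0.29 without wild-type replicate 1 at E14, and 0.07 without wild-type replicate 5 at E18, which took the second to -0.12. Ndn fell 1.83-fold to P35 (log2 fold change -0.87 ± 0.18, adjusted p 2.87e-05).

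Within P35 and P70 the values of Ndn fell apart into a lower and an upper set. Of the 20 libraries of these ages, 15 held 94.1 to 119 CPM and 5 held 189 to 205.4 CPM, with a gap of 70.3 CPM between them; the next largest gap was 6.09 CPM. The 5 were wild-type replicates 2 and 4 and Setd1a+/- replicate 4 at P35, and Setd1a+/- replicates 2 and 5 at P70. The high values thus occurred at both ages, in both genotypes at P35 and in Setd1a+/- libraries alone at P70. The genotypes did not overlap at P70, with 94.1 to 114 CPM in wild-type and 116 to 199 CPM in Setd1a+/- libraries. That difference was not called by edgeR (log2 fold change 0.48 ± 0.25, adjusted p 0.852). Snrpn, a splicing protein gene of the same imprinted region, ran from 695 to 826 CPM over the 20 libraries, a range of 1.19-fold, where that of Ndn was 2.18-fold. Magel2 ran from 1.29 to 5.96 CPM, Mkrn3 from 0.922 to 2.75 CPM and Peg12 from 0.054 to 0.603 CPM, a spread of 4.60-fold, 2.99-fold and 11.2-fold. The cause of the gap in Ndn was not tested.

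**Figure D3:**
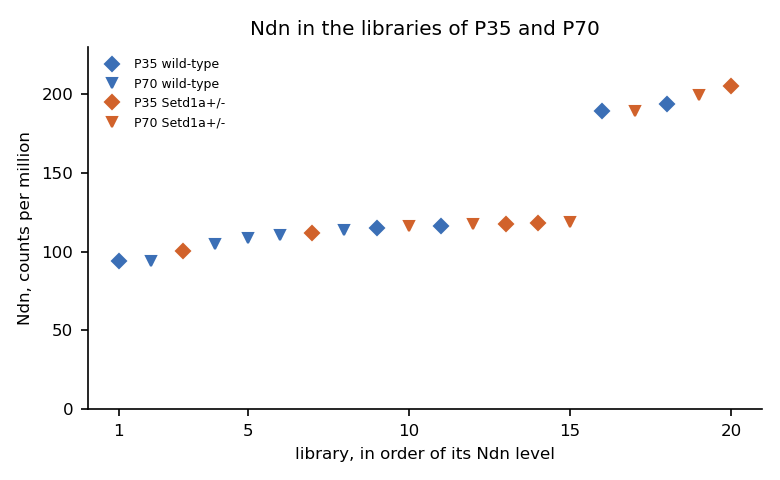
Ndn in the 20 libraries of P35 and P70, in CPM, ordered by level, with symbols for age and colours for genotype. The 15 lower libraries end at 119 CPM and the 5 upper ones begin at 189 CPM.

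The list of the insulin-like growth factor axis includes receptors, binding proteins and RNA-binding proteins, and 18 of its 21 genes were tested (Ins2, Igfbp1 and Igfals were not). Of all genes tested, 33.9%, 35.2%, 36% and 4.68% were called higher over the 4 steps, and 33.0%, 35.4%, 35.3% and 3.2% lower. These shares are the background for the counts of this and the other lists. From E14 to E18 7 of the 18 rose and 8 fell, with a median log2 fold change of -0.16. Igfbp6, a secreted binding protein with preference for Igf2, rose most (log2 fold change 3.10 ± 0.33, adjusted p 1.36e-11), followed by the growth factor Igf1 (log2 fold change 2.52 ± 0.31, adjusted p 7.41e-10). The mean of Igfbp6 was low at both ages, 0.19 CPM at E14 and 1.67 CPM at E18. The RNA-binding proteins Igf2bp1 (log2 fold change -1.95 ± 0.11, adjusted p 4.94e-21) and Igf2bp3 (log2 fold change -1.45 ± 0.08, adjusted p 2.88e-22), known from fetal tissue, fell. From E18 to P7 3 rose and 10 fell (median -0.39). Igf2bp1 fell 34.8-fold (log2 fold change -5.12 ± 0.15, adjusted p 1.67e-32) and Igf2bp2 6.72-fold (log2 fold change -2.75 ± 0.10, adjusted p 1.69e-28), while the adaptor Grb7, a relative of Grb10, rose (log2 fold change 1.32 ± 0.20, adjusted p 5.91e-08). From P7 to P35 1 rose, Igfbp6 (log2 fold change 3.87 ± 0.21, adjusted p 1.79e-22), and 9 fell (median -0.265), among them Igf2bp1 (log2 fold change -2.75 ± 0.30, adjusted p 1.23e-11) and Igf1 (log2 fold change -1.73 ± 0.30, adjusted p 1.47e-06). From P35 to P70 2 rose, Irs2 (log2 fold change 0.52 ± 0.12, adjusted p 0.00347) and the receptor gene Igf1r (log2 fold change 0.21 ± 0.05, adjusted p 0.00162), and 0 of 18 fell in the edgeR test. Mean Igf1r went from 184.6 CPM at E14 to 86.2 CPM at P70, and mean Igf2r, the receptor that clears Igf2, from 98.3 to 42.3 CPM.

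The imprinted neighbours of the 10 genes did not all follow them. Of 26 listed, 25 were tested (Phlda2 was not), and 12 rose and 7 fell from E14 to E18, 13 rose and 6 fell from E18 to P7, 8 rose and 10 fell from P7 to P35, and 0 rose and 3 fell from P35 to P70 in edgeR. Their medians were 0.23, 0.26, -0.08 and 0.01. Near Ndn, Magel2 fell from E14 to E18 (log2 fold change -1.47 ± 0.19, adjusted p 2.79e-09) and from P7 to P35 (log2 fold change -2.46 ± 0.22, adjusted p 1.85e-14), and Mkrn3 fell 10.3-fold from P7 to P35 (log2 fold change -3.36 ± 0.09, adjusted p 5.62e-35). Peg12 fell over all 4 steps, first to E18 (log2 fold change -2.11 ± 0.15, adjusted p 6.7e-18) and to P7 (log2 fold change -1.68 ± 0.16, adjusted p 1.07e-13). It then fell to P35 (log2 fold change -2.07 ± 0.19, adjusted p 1.4e-13) and to P70 (log2 fold change -1.27 ± 0.27, adjusted p 0.00153). Its means at these last ages were low, 0.408 and 0.167 CPM. Snrpn of the same region rose to E18, P7 and P35 (log2 fold changes 0.64, 1.02 and 0.42, all called). Mkrn3 had risen to E18 and P7 before its fall (0.23 and 0.26, both called). In the Dlk1 and Meg3 region Rtl1 rose from E18 to P7 (log2 fold change 1.70 ± 0.13, adjusted p 4.55e-16), and Dio3, which inactivates thyroid hormone, fell at that step (log2 fold change -2.04 ± 0.34, adjusted p 8.86e-07) and rose at the next (log2 fold change 1.35 ± 0.35, adjusted p 0.000634). Rian, a noncoding RNA of this region, stood at 342.9 CPM at E14 and 1104 CPM at P7 on average. Beside Grb10, Cobl rose to E18 (log2 fold change 1.48 ± 0.11, adjusted p 7.66e-17). Beside Mest, Klf14 rose from E18 to P7 (log2 fold change 1.87 ± 0.34, adjusted p 3.16e-06), at low mean levels of 0.118 and 0.439 CPM.

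Imprinted genes elsewhere in the genome (23 listed, all tested) were as mixed: 11 rose and 6 fell from E14 to E18, 8 and 10 from E18 to P7, 9 and 11 from P7 to P35, and 1 and 0 from P35 to P70. Nnat, a membrane protein gene of developing neurons, fell to P7 (log2 fold change -1.80 ± 0.11, adjusted p 6e-20) and to P35 (log2 fold change -2.04 ± 0.11, adjusted p 4.74e-22), and Asb4 (log2 fold change -2.16 ± 0.22, adjusted p 3.01e-12) and Peg10 (log2 fold change -1.70 ± 0.19, adjusted p 2.42e-11) fell to E18. The potassium channel gene Kcnk9 rose to E18 (log2 fold change 2.42 ± 0.18, adjusted p 2.12e-16) and to P7 (log2 fold change 2.36 ± 0.17, adjusted p 2.64e-17), and Rasgrf1 rose to P35 (log2 fold change 2.38 ± 0.13, adjusted p 1.02e-22). Of the factors that maintain imprints 10 of 11 were tested (Dppa3 was not). From E14 to E18 7 of 10 fell, beside 33.0% of all genes, from E18 to P7 10 of 10, beside 35.4%, and from P7 to P35 7 of 10, beside 35.3%, with 0, 0 and 2 higher. Zfp57, which protects methylation at imprinted regions, fell to P7 (log2 fold change -1.11 ± 0.07, adjusted p 1.48e-18) and 8.72-fold to P35 (log2 fold change -3.12 ± 0.08, adjusted p 3.36e-35). Uhrf1, a partner of the methyltransferase Dnmt1 in dividing cells, fell over the steps to E18 (log2 fold change -1.87 ± 0.17, adjusted p 1.79e-13), P7 (log2 fold change -1.64 ± 0.18, adjusted p 1.8e-11) and P35 (log2 fold change -2.46 ± 0.21, adjusted p 8.01e-15). From P35 to P70 edgeR called 0 of these 10, and 3 had an unadjusted p under 0.05, beside 21.1% of all genes.

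The second question, that of the study, is whether levels differ between Setd1a+/- and wild-type mice. Across ages, with age as a covariate and 25 libraries per genotype, edgeR called 0 of the 10 genes, beside 3.38% of all genes tested (786 genes, 121 higher and 665 lower in heterozygotes). The count at an unadjusted p under 0.05 was 1 of 10, H19, beside 13% of all genes (3035), and DESeq2 and limma-voom called 0. The estimate for H19 was 1.29-fold higher in heterozygotes (log2 fold change 0.37 ± 0.16, adjusted p 0.276) and that for Igf2 1.28-fold (log2 fold change 0.35 ± 0.19, adjusted p 0.46). Ndn (log2 fold change 0.18 ± 0.11, adjusted p 0.546), Dlk1 (log2 fold change 0.12 ± 0.17, adjusted p 0.859) and Cdkn1c (log2 fold change 0.10 ± 0.08, adjusted p 0.693) also had positive values. Without Setd1a+/- replicate 2 at E14 Igf2 was at 0.23 (adjusted p 0.635). Dlk1 was at 0.24 (adjusted p 0.563) without wild-type replicate 2 at P7 and at 0.05 (adjusted p 0.951) without Setd1a+/- replicate 3 at P70. The other 5 had values from -0.07 (Plagl1) to 0.03 (Meg3), with standard errors of at most 0.08. Without wild-type replicate 2 at P7 edgeR called 1 gene, Cdkn1c (log2 fold change 0.19, adjusted p 0.041). Of the 4 lists of other genes of growth factor signalling, imprinting and its maintenance, none held a gene called by genotype across ages, and neither did the marker lists. At P7 the choroid plexus gene Otx2 was called lower (log2 fold change -3.32, adjusted p 0.0403), which rests on wild-type replicate 2, at 16 CPM where the other 9 libraries held at most 0.643 CPM. The interaction of genotype with age called 0 of the 10 genes, beside 0% of all genes in edgeR. At an unadjusted p under 0.05 it was 0 of the 10 and 1404 of all, with the smallest adjusted p of the 10 for Meg3 at 0.863. DESeq2 called 16 genes and limma-voom 0, and both called 0 of the 10.

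At E14 the heterozygotes had more Igf2 and H19 in most libraries, but the groups overlapped and the difference did not pass the test. Igf2 stood at 31.9, 48.7, 115, 72.6 and 149.8 CPM in wild-type replicates 1 to 5 and at 44.3, 485, 139, 225 and 147 CPM in Setd1a+/- replicates 1 to 5. The 2 highest values were Setd1a+/- replicates 2 and 4, and Setd1a+/- replicate 1 lay among the lowest. H19 stood at 74.1, 78.9, 120.3, 98.0 and 158.8 CPM in the wild-type libraries and at 80.6, 318, 158.3, 213.2 and 165 CPM in the heterozygous ones. Here too Setd1a+/- replicate 2 was highest and replicate 1 lay among the lower wild-type values. edgeR gave 2.48-fold more Igf2 (log2 fold change 1.31 ± 0.42, adjusted p 0.176) and 1.76-fold more H19 (log2 fold change 0.82 ± 0.28, adjusted p 0.213), and called 0 of the 10 genes at E14, beside 0.0473% of all genes (11). The unadjusted count was 2 of 10, beside 9.72% of all genes (2262), and DESeq2 and limma-voom called 0. Whether these genes pass depends on which libraries are kept. Without Setd1a+/- replicate 1 both genes were called (Igf2 1.57, adjusted p 0.0317; H19 1.01, adjusted p 0.0439). Without wild-type replicate 5, the E14 library with Xist, Igf2 was called (1.63, adjusted p 0.0443), and without Setd1a+/- replicate 2 Igf2 was at 0.73 and H19 at 0.54, both with an adjusted p of 1. The meningeal and perivascular fibroblast markers, a list of 12 genes, moved with them. Their summed level at E14 was 117, 130.8, 301, 229 and 468 CPM in wild-type replicates 1 to 5 and 144, 1678, 313, 620.4 and 409.8 CPM in Setd1a+/- replicates 1 to 5, which is the order of Igf2 but for 1 exchange, between wild-type replicate 2 and Setd1a+/- replicate 1. Col3a1 gave the largest share of the counts in this sum, and none of the 12 was at 0. The endothelial and mural cell markers (11 genes) also had higher values in heterozygotes at E14, in 11 of 11 genes with a median log2 fold change of 0.70. Their summed level was 180.3, 184, 202.3, 171 and 225 CPM in wild-type and 179.9, 821, 191.8, 303 and 191 CPM in Setd1a+/- replicates 1 to 5, where replicates 2 and 4 stood above all others and the rest overlapped. edgeR called 0 of the 11 (9 at an unadjusted p under 0.05) and 0 of the 12 fibroblast markers (10 unadjusted); these lists were not tested with other tools, and the part of the endothelial list in the difference was not tested. With the log2 of the fibroblast sum as a covariate the E14 difference was -0.0024 for Igf2 and 0.03 for H19 (adjusted p 1 for both). With that covariate the difference across ages was 0.07 for Igf2 (adjusted p 0.71) and 0.18 for H19 (adjusted p 0.313). Setd1a+/- replicate 2 was the highest E14 library for the sum and for both genes. This fit cannot tell an effect of genotype apart from one of tissue content.

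At E18 the largest estimate was that of Meg3, with 1209, 1063, 1089.5, 1363 and 1226 CPM in wild-type and 1198, 1599.7, 2018, 1882 and 1545 CPM in Setd1a+/- replicates 1 to 5. Of the heterozygous libraries 4 lay above all wild-type ones and replicate 1 within them (log2 fold change 0.47 ± 0.17, adjusted p 0.308). Plagl1 went the other way, with 45.5, 39.5, 50, 44.6 and 43.3 CPM in wild-type and 39.4, 38.4, 32.1, 31.5 and 38.2 CPM in Setd1a+/- libraries. All heterozygous values lay below the lowest wild-type value (log2 fold change -0.31 ± 0.11, adjusted p 0.31). Mest (log2 fold change -0.32 ± 0.14, adjusted p 0.413) and Grb10 (log2 fold change -0.26 ± 0.12, adjusted p 0.468) also had negative values, with overlapping groups. Markers of vessels, fibroblasts and choroid plexus mostly had lower values in heterozygotes at E18, though none was called. The summed endothelial and mural cell markers stood at 374, 259, 551, 469 and 259 CPM in wild-type and 267, 215, 256, 295 and 244 CPM in Setd1a+/- replicates 1 to 5, where 3 wild-type libraries lay above all heterozygous ones and 2 among them. Values were negative for 10 of 11 of these genes (median log2 fold change -0.53), for 11 of 12 fibroblast markers (median -0.31) and for 8 of 9 choroid plexus markers (median -0.70). edgeR called 0 of them, with 5, 0 and 3 at an unadjusted p under 0.05, and their part in the differences of Meg3, Plagl1, Mest and Grb10 was not tested. The edgeR count at E18 was 0 of 10, beside 0.0731% of all genes (17), and 0 in DESeq2 and limma-voom. At an unadjusted p under 0.05 the edgeR count was 4 of 10, beside 10.1% of all genes (2348). At P7 edgeR called 0 of 10, beside 0.361% of all genes (84), and at P35 0 of 10, beside 0.00860% (2). At P70 it was 0 of 10, beside 0.138% (32). The unadjusted counts were 0 at each of these ages, beside 8.24%, 3.57% and 6.25% of all genes, and DESeq2 and limma-voom called 0. Cdkn1c at P7 stood at 13.9, 39.7, 16.5, 13.1 and 14.1 CPM in wild-type and 18.2, 16.9, 14.8, 16.3 and 15.5 CPM in Setd1a+/- libraries, so that the wild-type mean rests largely on replicate 2. At P35 the values were 7.87, 7.87, 8.51, 8.73 and 6.98 against 10.8, 8.13, 10.9, 9.78 and 9.19 CPM, where 4 of 5 heterozygous libraries lay above all wild-type ones (log2 fold change 0.29 ± 0.19, adjusted p 1). H19 at P35 (log2 fold change 0.98 ± 0.71, adjusted p 1) rested on 5 to 43 counts per library.

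**Figure D4:**
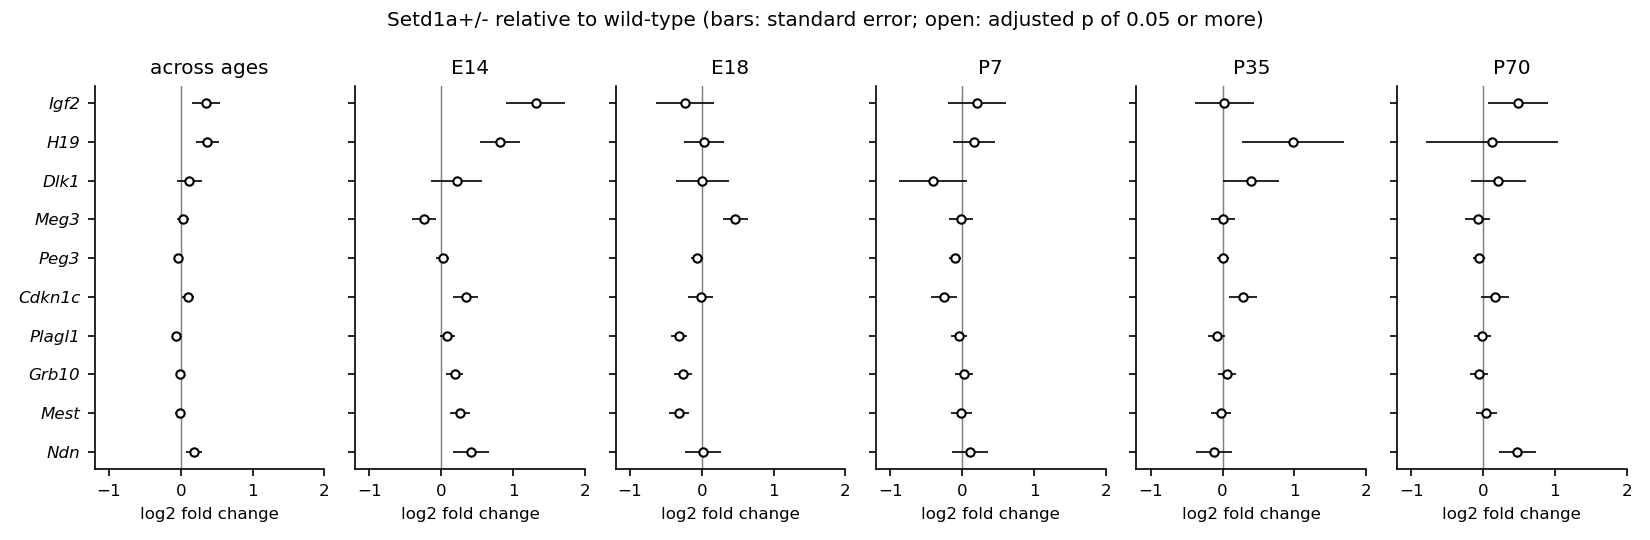
Log2 fold change of Setd1a+/- against wild-type for each gene, across ages (25 libraries per genotype) and at each age (5 per genotype), with standard errors as bars. All points are open because none has an adjusted p under 0.05; the largest is Igf2 at E14 at 1.31.

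The ratios within a library did not pass a test between genotypes either. The log2 ratio of H19 to Igf2 differed by 0.12 between genotypes (Setd1a+/- minus wild-type, mean over the 5 ages, two-sided permutation test within age, p = 0.466, adjusted p = 0.469 over 2 ratios), and the heterozygotes were higher at 2 of 5 ages. By age, from E14 to P70, the differences were -0.39, 0.22, -0.01, 0.98 and -0.19, so the positive mean rests on P35, where H19 had 5 to 43 counts per library. That of Meg3 to Dlk1 differed by -0.15 (permutation p = 0.469, adjusted p = 0.469), with the heterozygotes higher at 1 of 5 ages, and by -0.265 without wild-type replicate 2 at P7, an alternative chosen after seeing the data.

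The third question is how far libraries of 1 group differ with the tissue they hold. Igf2 and H19 are known from meninges and vessels, and the summed fibroblast markers varied among libraries of the same group. Their range was 117 to 1678 CPM (median 307) at E14, 189 to 908 CPM (median 518) at E18, 312 to 446 CPM (median 389) at P7, 135 to 198 CPM (median 173) at P35 and 126 to 269 CPM (median 148) at P70. Per length the most abundant gene of the list over all libraries was Islr. As deviations from the mean of each group on the log2 scale, over 50 libraries, Igf2 followed this sum closely (Pearson r 0.91, adjusted p 5e-05; Spearman rho 0.93, adjusted p 0.0001; two-sided permutation within group, 10 genes). The unadjusted p of 1e-05 is the smallest these permutations can give. Without the 2 libraries farthest from the median, Setd1a+/- replicates 1 and 2 at E14, r was 0.89. H19 followed it less closely (r 0.63, adjusted p 5e-05; rho 0.635, adjusted p 0.00025; 0.58 without the 2 libraries), and Cdkn1c less again (r 0.43, adjusted p 0.000567; rho 0.51, adjusted p 0.00297; 0.51 without them). Meg3 ran against it (r -0.55, adjusted p 0.00497; rho -0.45, adjusted p 0.0135; -0.52 without them). The other 6 genes did not pass with all libraries, with r from -0.33 for Ndn to 0.43 for Mest. Without the 2 farthest libraries Plagl1 (r 0.37, adjusted p 0.0476) and Grb10 (r 0.55, adjusted p 0.0123) passed as well. All libraries were sequenced in a single batch, and no other batch is given to divide them by. The deviations of both measures come from the same libraries and share their depth and scaling. Those of H19 rest on 5 to 43 counts per library at P35 and on 3 to 14 at P70. How far such low counts bear on its r was not tested.

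**Figure D5:**
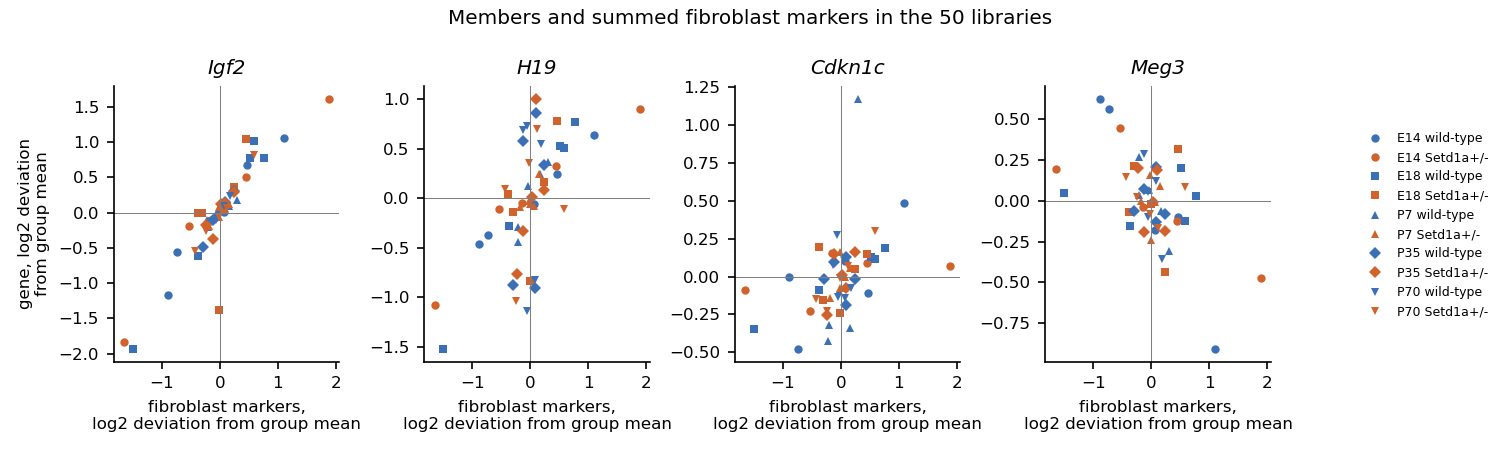
Deviation of Igf2, H19, Cdkn1c and Meg3 from the mean of their group (log2, vertical axis) against that of the summed fibroblast markers (log2, horizontal axis) in the 50 libraries, with symbols for age and colours for genotype. Igf2 lies along a rising line (r 0.91) and Meg3 falls (r -0.55). On the horizontal axis E14 libraries span the widest range.

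Over the means of the 10 groups, the genes whose course was most like that of each of the 10 were found among 15512 genes by the highest Pearson r of log2 CPM, as a description. For Igf2 they were Gm49394, with which it shares exons, Mrc1 (0.996), a macrophage receptor, and the collagen gene Col1a2 (0.988). For H19 they were Ppm1g (0.998), Sdc1 and 4930474H06Rik, for Dlk1 Six3os1 (0.996), Adnp2 and Pnrc1, and for Meg3 Prkaca (0.997), Gm16278 and the precursor Mir770 within it. For Peg3 they were Slc43a2 (0.996), Cfap65 and Necab3, for Cdkn1c the overlapping Gm44732, the neuronal transcription factor gene Neurod2 (0.998) and Zfp623, and for Plagl1 the chromatin protein gene Dek (0.998), the progenitor transcription factor gene Sox21 (0.997) and Gm13568. For Grb10 they were Dck (0.997), Psme4 and Limd1, for Mest Prdm16 (0.995), Zmym5 and Tlk2, and for Ndn Slc22a15 (0.982), S100a11 and the collagen gene Col3a1 (0.980). Among the 10 themselves, the courses most alike were Plagl1 and Grb10 (r 0.984 over the 10 means) and those most opposed Meg3 and Mest (r -0.981).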

How the data were processed

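Poly-A selected RNA of frontal cortex from 50 mice was sequenced as 150-base paired reads in a single batch. For the authors' counts, Trimmomatic trimmed the reads, STAR aligned them to GRCm38, and featureCounts counted fragments (1.4.6-p2, Ensembl 102 exons, unstranded, a fragment counted for every overlapping gene); the deposited values are raw counts per gene and library, with no normalization. Genes were named by GENCODE vM21. Groups came from the sample titles. Genes passing filterByExpr over the 10 groups (23264) were scaled by TMM and tested with edgeR 4.0.16 (quasi-likelihood) in R 4.3.3, with Benjamini-Hochberg adjustment over all of them and calls at 0.05. Age steps had genotype, and genotype age, as covariate; tests within ages and the interaction used the 10 groups. Alternatives were DESeq2 1.42.0, limma-voom 3.58.1, other scalings, filters, covariates and thresholds, a replicate block and left-out libraries. Log2 ratios added 0.5 counts. Permutations (100000) shuffled libraries within age or group in Python 3.11.15. The fits were tested on simulated data. Genes named are the 10, for each list and age step up to 2 of the called genes with the largest rises and falls, 3 most alike genes for each of the 10, the most abundant gene per length or by share of each marker list, and Setd1a; the genes set beside Ndn and single libraries' Otx2, Igf2r and Rian means were chosen after their values were seen. The summed level of 1 marker list is not reported here. Members and lists were chosen with earlier results of these data known.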

Additional observations from a re-analysis of the deposited data

Results flagged for a closer look

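In 100 groups of 5 libraries (10 genes in 10 groups), the highest or lowest library was set far from the others in 7. There the gap to the nearest library divided by the whole range, both in log2 CPM, was above 0.71. The ratios below are on that log2 scale, and the levels beside them are in CPM. Chance gives about 1 in 20 groups. Wild-type replicate 2 at P7 was the highest of its group for Dlk1 (5.69 CPM, others 0.923 to 1.21, ratio 0.855), Cdkn1c (39.7 CPM, others 13.1 to 16.5, ratio 0.795) and Plagl1 (36.6 CPM, others 19.8 to 22.4, ratio 0.8). It is the library with choroid plexus marker RNA. At E14, wild-type replicate 1 was highest for Ndn (436 CPM, others 156 to 194.6, ratio 0.787) and Setd1a+/- replicate 3 lowest for Plagl1 (122 CPM, others 144 to 150, ratio 0.811). At P7 Setd1a+/- replicate 2 was highest for H19 (27.9 CPM, others 22.2 to 23.1, ratio 0.835), and at P35 Setd1a+/- replicate 4 was highest for Ndn (205.4 CPM, others 100.2 to 118, ratio 0.773).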

How the results depend on the processing

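Of 346 alternative values for the called age steps of the 10 genes, 334 kept their direction and their call and 12 kept the direction only. Over all genes 437 were called by genotype across ages at an adjusted p under 0.01, in place of 786. Leaving out 1 library at a time gave 0 to 1 of the 10 genes called across ages (1 without the P7 library that stands apart) and 0 to 2 at E14. Without both libraries with Xist, 1 was called at E14 (Igf2, 1.63, adjusted p 0.0407); the cause was not tested. Restricting the test to protein-coding genes, which drops H19 and Meg3, gave 1 gene higher from E14 to E18 and 1 higher from E18 to P7, and wild-type libraries alone gave 1 higher from E14 to E18 (Igf2, without Meg3), with fewer samples. Some values changed sign, and of those of the 10 genes none was called. Across ages the genotype log2 fold change of Meg3 was -0.0165 without both Xist libraries. That of Grb10 was 0.0012 with limma-voom, 0.0023 with RNA integrity as covariate, 0.0163 without both Xist libraries and -0.0345 to 0.0168 when leaving out 1 library. That of Mest was 0.0222 without both, and -0.0402 to 0.0197 when leaving out 1. Igf2 at E14, at 1.31 in the report, was -0.0024 with the fibroblast covariate. From E14 to E18 H19 was 0.2697 in wild-type libraries and -0.2318 to 0.0334 when leaving out 1. From E18 to P7 Igf2 was 0.2121 with limma-voom and -0.1959 to 0.0780 when leaving out 1. Meg3 from P7 to P35 was -0.0129 with RNA integrity, and Dlk1 from P35 to P70 -0.0282 with limma-voom and -0.0575 to 0.2278 when leaving out 1. For Ttr, step P7 to P35, log2 fold change -6.55 and called lower, the value was 1.0791 without the P7 library that stands apart and -7.3129 to 1.0791 when leaving out 1. The causes of these were not tested. With same-numbered replicates of an age as a block, 843 genes were called across ages and 0 of the 10. The sample titles do not say whether the numbers pair the libraries. Same-numbered libraries had r above 0.1 in 8 of 25 pairs (median 0.05, highest 0.36). In 6 of the 25 pairs each was the best match of the other. The age steps could not be fitted with that block. Library size in place of TMM moved the median log2 fold change of all genes by at most 0.1. H19 after P7 rests on few counts, and 5 libraries per group limit the comparisons within an age.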

Other observations

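Erythroid markers (7 genes, most abundant per length Hbb-bs) fell from E14 to E18 in 7 of 7, rose from P7 to P35 in 5 of 7 and fell from P35 to P70 in 6 of 7. Their summed level at P35 ran from 173 to 564 CPM and at P70 from 56.6 to 192.1 CPM. Of the endothelial and mural cell markers (11 genes, most abundant per length Cldn5), the transporter Slco1a4 rose from E18 to P7 (log2 fold change 2.89 ± 0.31, adjusted p 1.36e-11) and from P7 to P35 (log2 fold change 2.83 ± 0.26, adjusted p 7.87e-14), and 2, 2 and 3 of the 11 rose over the steps from E14 to P35, with 0, 2 and 4 lower. Hypothalamic and midbrain markers (9 of 12 tested, Oxt, Ghrh and Hcrt were not) moved in both directions. Nkx2-1 fell from E14 to E18 (log2 fold change -3.62 ± 0.35, adjusted p 4.05e-13) and from E18 to P7 (log2 fold change -2.43 ± 0.39, adjusted p 3.61e-07). Slc6a3 rose from E14 to E18 (log2 fold change 3.26 ± 0.36, adjusted p 4.05e-11) and from E18 to P7 (log2 fold change 0.98 ± 0.26, adjusted p 0.000951). Its mean level was low, at 0.066 CPM at E14, 0.68 CPM at E18 and 1.3 CPM at P7. Th rose from E14 to E18 (log2 fold change 1.17 ± 0.37, adjusted p 0.00527). Choroid plexus markers varied among embryonic libraries too, with summed levels of 13, 24.1, 382, 261 and 419 CPM in wild-type and 77.8, 16.5, 188, 457 and 465 CPM in Setd1a+/- replicates 1 to 5 at E14. Ttr was the most abundant gene of the list per length over all libraries. Fibroblast markers rose in 6 of 12 from E14 to E18 and fell in 0, then 1 rose and 1 fell to P7, and 4 fell to P35, Col3a1 (log2 fold change -2.56 ± 0.48, adjusted p 6.62e-06) and Col1a1 (log2 fold change -1.92 ± 0.44, adjusted p 0.000141) the furthest. Slc17a7, a vesicular glutamate transporter, rose over the steps to E18 (log2 fold change 0.99 ± 0.13, adjusted p 2.82e-09), P7 (log2 fold change 2.54 ± 0.13, adjusted p 1.8e-22) and P35 (log2 fold change 1.53 ± 0.13, adjusted p 4.11e-15).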
